A study of Mus musculus with 8 samples.

Results

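The genes of meiotic recombination followed here are Spo11, Dmc1, Psmc3ip, Mnd1, Msh4, Msh5, Mlh3, Prdm9 and Hfm1, and every array feature (probe set) annotated with 1 of these 9 symbols was taken. That gave 11 probe sets for 8 of the genes, of 45037 probe sets in all. Dmc1, Psmc3ip and Msh5 had 2 probe sets each and the other 5 genes had 1. No probe set was annotated with Hfm1, the gene of a helicase that promotes crossovers, so it was not analysed here. The arrays measured RNA of whole testes from 8 mice aged 27 days, with 4 mice labelled Brwd1-/- (mutant) and 4 titled wild type, 1 array per mouse. Brwd1 encodes a protein with bromodomains and WD repeats. The nature of the mutation is not given in the labels. The controls are wild type by title but Brwd1+/- by genotype entry, so they may carry 1 mutant copy, and the name in the title is used here. The series' design places this age after meiosis is complete in the leading germ cells, with spermatids partway through development.

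Meiotic recombination exchanges DNA between homologous chromosomes during prophase of meiosis. In mice, PRDM9 marks the sites by methylating histones, SPO11 cuts the DNA there, and the recombinase DMC1, helped by the PSMC3IP-MND1 complex, pairs the cut ends with the homologue. MSH4 and MSH5 hold the joined molecules together, and MLH3 helps turn some of them into crossovers. In the testis these genes are known for their use in spermatocytes, the cells in meiotic prophase, and loss of most of them stops spermatocytes from completing meiosis.

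Intensities are in arbitrary units, scaled to a common mean, and with 4 arrays per genotype every value is of limited precision. Differences are mutant minus wild type on the scale of log2(intensity + 16). They were tested with limma over 27022 probe sets, with p-values adjusted over all of them by the Benjamini-Hochberg method and a threshold of 0.05. Median intensities of the arrays lay between 90.3 and 124. Replicates 3 and 4 of both genotypes stood apart from replicates 1 and 2: they were separated on principal component 1, which held 53.8% of the variance. The summed intensity of 5 epididymis genes was 38942 to 47200 in replicates 3 and 4 and 158 to 302 in replicates 1 and 2. Such a split is called a batch here, although the labels name none. Each batch held 2 mice of each genotype, and models with the batch or the replicate number as a block were fitted as well. The 4 tested probe sets of Brwd1 had log2 differences between -0.28 and 0.31 and none was called. A probe set outside the altered part of the gene checks nothing about the genotype.

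No probe set of the recombination genes differed between mutant and wild-type testes by limma's test. Of the 11, 0 were called in the model without a block, 0 when the replicate number was the block and 0 when the batch was. The matching shares over all probe sets were 0.115%, 2.39% and 1.79%. At an unadjusted p of 0.05 the counts were 0, 0 and 1 of 11, against 2009, 3872 and 3941 of all 27022 probe sets. The 11 log2 differences lay between -0.31 for Msh4 and 0.16 for Msh5, with a median of -0.05, against a median of 0.07 over all probe sets tested. In 0 of 11 probe sets did the 4 mutant values lie wholly apart from the 4 wild-type values, which was so in 6.1% of all probe sets. Genotypes cannot lie apart where the batches do, as in 36.4% of the 11 and 35.9% of all probe sets. In a whole testis, fewer cells of a type and less RNA per cell cannot be told apart.

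Prdm9, the histone methyltransferase that marks recombination sites (probe set 1426107_at, chromosome 17), read 100.9, 57.3, 99.9 and 59.4 in mutant replicates 1 to 4 and 76.0, 121.2, 54.3 and 70.0 in wild-type replicates 1 to 4. High and low values occurred in both genotypes, and the groups overlapped. The means were 79.4 ± 24.3 in mutants and 80.4 ± 28.7 in wild type (SD, n = 4 each). The log2 difference was -0.01, with a 95% interval from -0.63 to 0.61 (limma, adjusted p = 0.999). Its mean over the arrays lay at the 43.5th percentile of all probe sets, just above the 40th percentile required for testing. The table holds no detection calls, so how far this signal lay above background is unknown.

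Spo11 encodes the enzyme that cuts DNA to start recombination. Its probe set 1417021_a_at (chromosome 2) is of the kind designed to match several transcripts of 1 gene, so splice forms are not resolved. It read 1033.9, 1077.9, 1987.2 and 1807.7 in mutant replicates 1 to 4 and 1447.8, 1601.4, 1539.9 and 2265.5 in wild-type replicates 1 to 4. Mutant replicates 1 and 2 were the lowest of the 8 mice, while mutant replicates 3 and 4 lay within the wild-type range. The log2 difference was -0.25 with an interval from -0.82 to 0.32 (limma, adjusted p = 0.999). In the batch of replicates 3 and 4 it was 0.02 (limma, adjusted p = 0.979). In that of replicates 1 and 2 it was -0.52 (limma, unadjusted p = 0.0196, adjusted p = 0.346, against a range of 0.346 to 1.00 over all settings run). Among all probe sets 0.0851% were called in replicates 3 and 4 and 0% in replicates 1 and 2, where 2894 had an unadjusted p under 0.05. The value in replicates 3 and 4 minus that in replicates 1 and 2, tested as an interaction of genotype and batch, was 0.54 with an interval from -0.05 to 1.14 (limma, adjusted p = 0.789).

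The strand exchange genes Dmc1, Psmc3ip and Mnd1 had small genotype differences, between -0.01 and -0.08 on 5 probe sets. Dmc1, the meiotic recombinase gene (chromosome 15), read 627.0, 486.8, 479.2 and 439.6 in mutant replicates 1 to 4 and 548.3, 500.1, 467.0 and 553.9 in wild-type replicates 1 to 4 on probe set 1449819_at. Mutant replicate 1 was the highest mouse and mutant replicate 4 the lowest. The log2 difference was -0.03 with an interval from -0.38 to 0.31 (limma, adjusted p = 0.999). On its probe set 1420335_at Dmc1 read 341.2, 337.2, 348.0 and 315.5 in mutants and 366.8, 366.4, 304.0 and 352.9 in wild type. Wild-type replicate 3 was the lowest mouse there and mutant replicate 4 the next, and the genotypes overlapped, with a log2 difference of -0.05 (interval -0.35 to 0.26; limma, adjusted p = 0.999).

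Psmc3ip encodes a partner that stimulates DMC1 (chromosome 11). On probe set 1425271_at it read 3521.8, 3620.8, 3672.7 and 3466.9 in mutant replicates 1 to 4 and 3820.5, 3671.1, 3456.4 and 3489.7 in wild-type replicates 1 to 4. The coefficient of variation was 2.61% among mutants and 4.69% among wild-type mice, and the groups overlapped. The log2 difference of -0.01 had the narrowest interval of the 11 probe sets, -0.24 to 0.21, which corresponds to 0.849-fold to 1.15-fold (limma, adjusted p = 0.999). Probe set 1442058_s_at of Psmc3ip, of a kind whose probes may match other transcripts too, read 3091.0, 3069.1, 2789.2 and 2413.8 in mutants and 2994.9, 3277.2, 2946.7 and 2577.7 in wild type. Replicate 4 was the lowest mouse of each genotype there, and the log2 difference was -0.06 (interval -0.35 to 0.24; limma, adjusted p = 0.999). Mnd1, whose protein forms a complex with that of Psmc3ip (1452606_at, chromosome 3), read 157.3, 80.5, 132.1 and 110.1 in mutants and 147.1, 114.1, 118.3 and 120.8 in wild type. Mutant replicates 1 and 2 were the highest and the lowest of the 8 mice, and the log2 difference was -0.08 (interval -0.56 to 0.40; limma, adjusted p = 0.999).

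Msh4, whose protein pairs with MSH5 on recombination intermediates (1419511_at, chromosome 3), had the lowest log2 difference of the 11 probe sets. It read 376.0, 331.1, 553.1 and 487.4 in mutant replicates 1 to 4 and 406.3, 533.4, 607.9 and 612.1 in wild-type replicates 1 to 4. Each mutant was below the wild-type mouse of the same number, although the labels do not pair mice by number. The groups overlapped, since mutant replicates 3 and 4 were above wild-type replicate 1. The means were 436.9 ± 101.6 in mutants and 539.9 ± 96.1 in wild type (SD, n = 4 each). The log2 difference of -0.31 had an interval from -0.77 to 0.16 (limma, adjusted p = 0.953). With the batch block the interval was -0.59 to -0.02, but the test missed the threshold over all probe sets (limma, unadjusted p = 0.0398, adjusted p = 0.310, the lowest of all settings run, which ranged up to 1.00). In that model 3941 of all 27022 probe sets had an unadjusted p under 0.05. The difference was -0.23 among replicates 3 and 4, against -0.38 among replicates 1 and 2.

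Msh5, the partner of Msh4 (chromosome 17), read 529.8, 465.4, 362.0 and 310.1 in mutant replicates 1 to 4 and 439.7, 412.5, 406.7 and 335.2 in wild-type replicates 1 to 4 on probe set 1449537_at. Mutant replicates 1 and 2 were the highest mice and mutant replicate 4 the lowest, so the wild-type values lay inside the mutant range. The log2 difference was 0.04 (interval -0.39 to 0.47; limma, adjusted p = 0.999). On probe set 1430771_a_at Msh5 read 266.5, 301.1, 173.3 and 174.4 in mutants and 333.5, 279.9, 192.8 and 80.7 in wild type. Wild-type replicates 1 and 4 were the extremes there, and the log2 difference of 0.16 had the widest interval of the 11 probe sets, -0.72 to 1.04 (limma, adjusted p = 0.999). Mlh3, whose protein acts in crossover formation (1426052_at, chromosome 12), read 336.0, 272.9, 703.3 and 696.8 in mutants and 291.3, 492.0, 575.7 and 710.7 in wild type. In both genotypes replicates 3 and 4 were the highest mice, and the log2 difference between genotypes was -0.09 (interval -0.92 to 0.74; limma, adjusted p = 0.999).

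**Figure D1:**
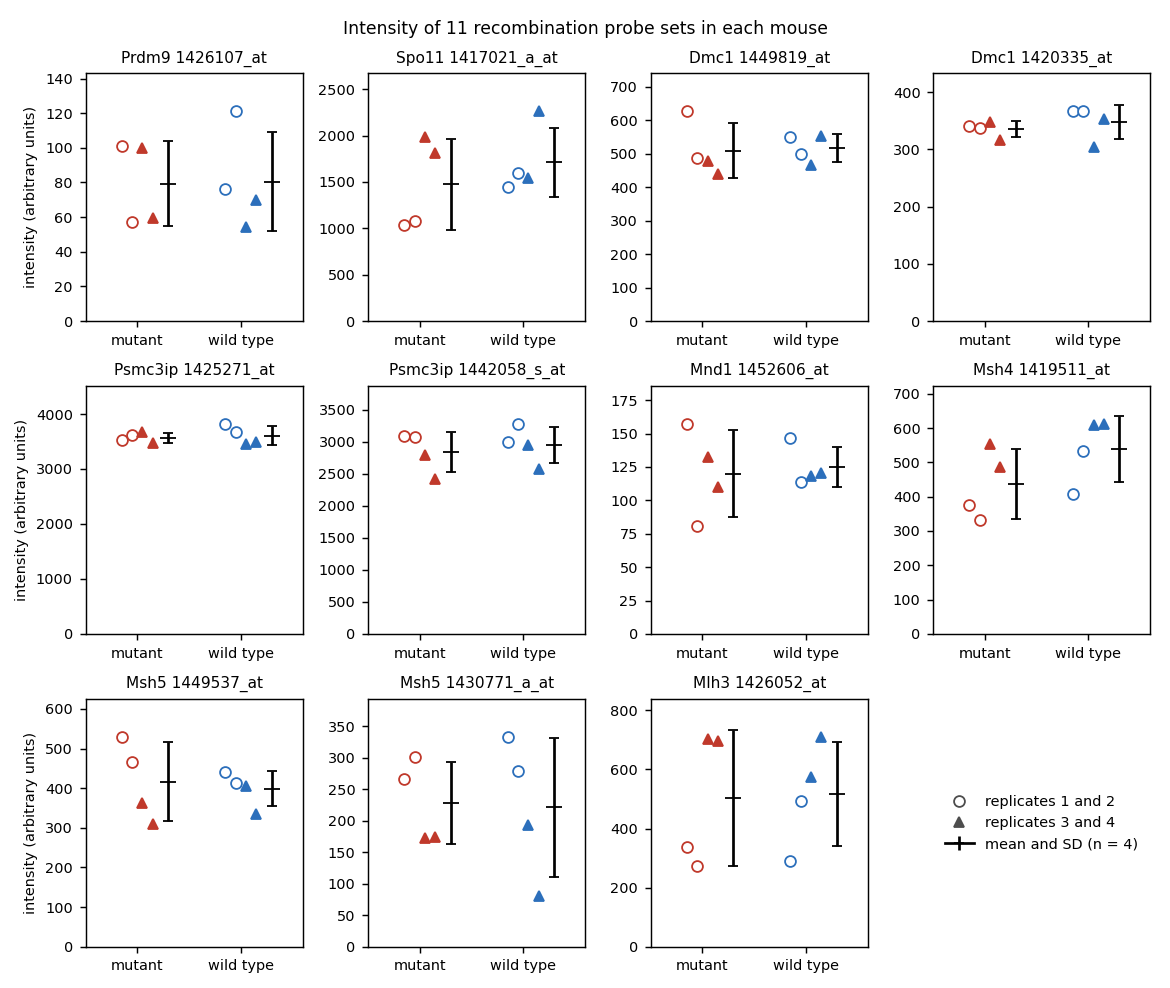
Intensity (arbitrary units, linear axis from 0) of the 11 probe sets in each mouse, mutant left and wild type right. Open circles are replicates 1 and 2, filled triangles replicates 3 and 4, and the bar gives the mean and SD of 4 mice. The genotypes overlap in all 11 panels, and for Mlh3 the triangles of both genotypes, from 575.7 to 710.7, lie above every circle.

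The intervals bound the size of a genotype difference that these arrays leave room for. Without a block the intervals reached from -0.92 (Mlh3) to 1.04 (Msh5), and 10 of 11 lay inside 1 log2 unit on either side of 0. With the replicate number as block they reached from -0.65 to 0.66, with the batch as block from -0.59 to 0.68, and all 11 lay inside that span. A p that misses the threshold does not show that the genotypes were alike.

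**Figure D2:**
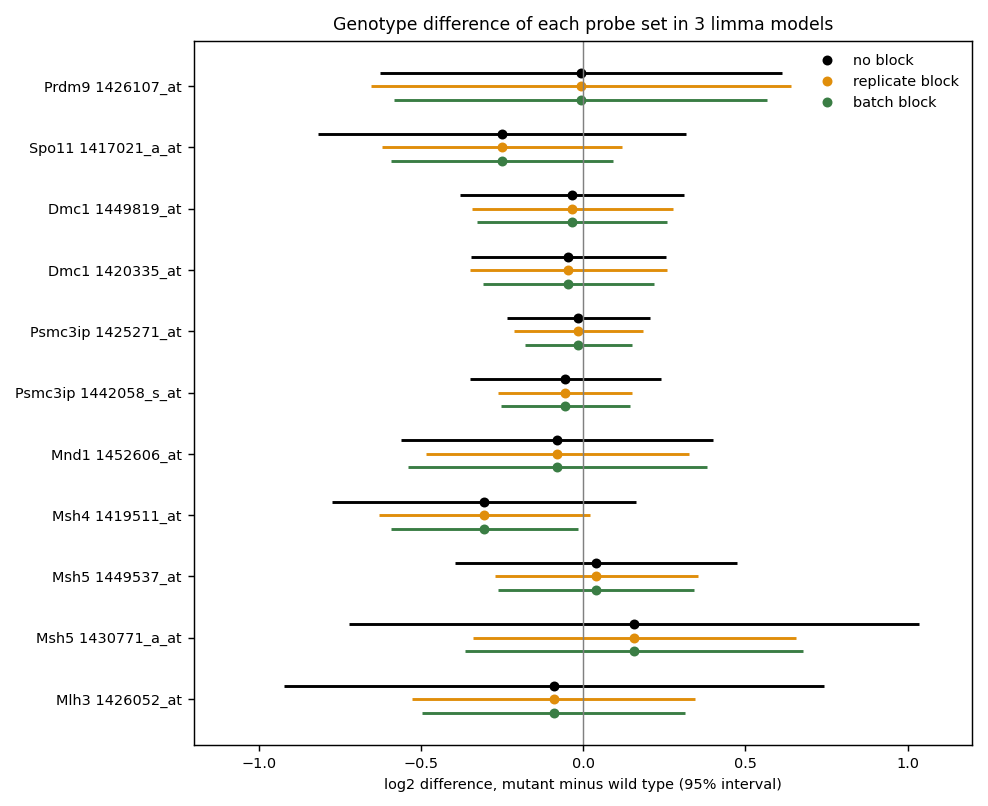
Log2 difference of each probe set, mutant minus wild type (x axis), with its 95% interval in 3 limma models (no block, replicate block, batch block). All estimates lie between -0.31 and 0.16, and only the interval of Msh4 with the batch block, -0.59 to -0.02, does not include 0.

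Several of the genes differed more between batches than between genotypes, and not all in the same direction. These values are a description with no test, since the batches were found from the same arrays. Mlh3 had a mean of 671.6 in replicates 3 and 4, against 348.1 in replicates 1 and 2, a log2 difference of 0.95 between batches. For Spo11 the means were 1900.1 and 1290.2 (0.56) and for Msh4 565.1 and 411.7 (0.46), and for both genes the batches overlapped. Msh5 went the other way on both probe sets, with 155.3 in replicates 3 and 4 and 295.3 in replicates 1 and 2 on 1430771_a_at (-0.92) and 353.5 and 461.9 on 1449537_at (-0.37). Psmc3ip was lower by 0.21 log2 units on 1442058_s_at, but differed by only -0.05 on 1425271_at. Dmc1 and Mnd1 differed by -0.01 to -0.15, and Prdm9 by -0.26 between overlapping batches. The 4 mice of each batch lay wholly apart in 4 of 11 probe sets (1 higher and 3 lower in replicates 3 and 4), or 36.4%, against 35.9% of all probe sets, so the share among these genes was near that of the table.

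Markers of the cells that use these genes differed between the batches too, but not all in 1 direction. The summed intensity of 9 synaptonemal complex genes, which mark spermatocytes in prophase, was 35114 to 40087 in replicates 3 and 4 and 26769 to 31179 in replicates 1 and 2. Of the 9, Sycp1, Sycp2, Smc1b and Sycp3 lay wholly higher in replicates 3 and 4, with log2 differences of 1.97, 2.21, 2.54 and 0.56. Syce3 (-0.80) and Tex12 (-0.42) lay wholly lower, and Rec8 (-0.29), Syce1 (0.17) and Syce2 (0.05) overlapped between the batches. For 4 genes of pachytene and later spermatocytes (Hspa2, Ccna1, Mybl1, Piwil1) the sums were 20054 to 21676 in replicates 3 and 4 and 26427 to 29679 in replicates 1 and 2. Most of each sum was Hspa2, a heat shock protein gene of spermatocytes, with 12642 to 13738 in replicates 3 and 4 and 16790 to 19935 in replicates 1 and 2. Ccna1 also lay wholly lower in replicates 3 and 4 (-0.59), while Piwil1 (-0.19) and the summed probe set of Mybl1 (0.49, higher in replicates 3 and 4) overlapped. None of these 13 markers was below an intensity of 1 on all arrays. Their part in the batch differences of the recombination genes was not tested.

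**Figure D3:**
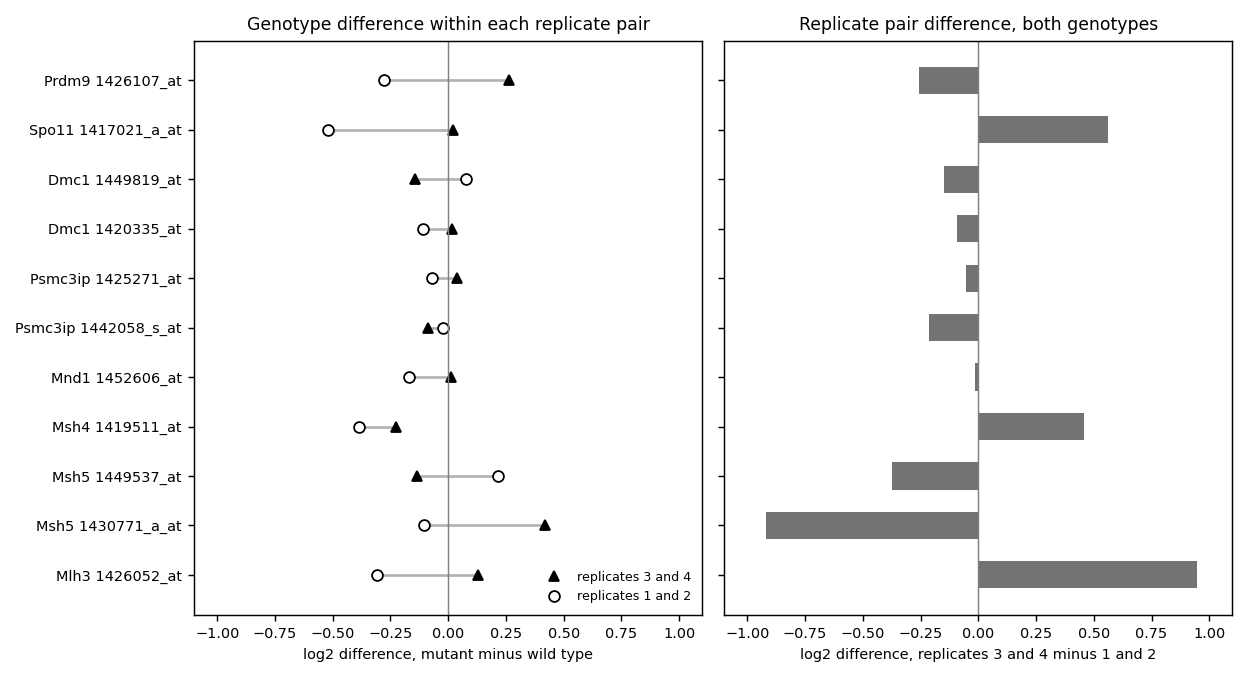
Left, log2 difference, mutant minus wild type, among replicates 3 and 4 (triangles) and among replicates 1 and 2 (open circles). Right, log2 difference of replicates 3 and 4 minus replicates 1 and 2 over both genotypes (bars from 0). Mlh3, Spo11 and Msh4 have bars of 0.95, 0.56 and 0.46 to the right, and both Msh5 probe sets have bars to the left (-0.92 and -0.37).

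Within each batch the genotype difference kept its sign in 2 of 11 probe sets. These were Msh4 and probe set 1442058_s_at of Psmc3ip (-0.09 in replicates 3 and 4, -0.02 in replicates 1 and 2). The share of all probe sets that kept their sign was not counted, so this is not a trait of these genes. Prdm9 had 0.27 in replicates 3 and 4 and -0.28 in replicates 1 and 2, Mlh3 0.13 and -0.31, and Msh5 on 1430771_a_at 0.42 and -0.10. The interaction of genotype and batch was called for 0 of 11 probe sets and for 0% of all probe sets (limma). At an unadjusted p of 0.05 these were 0 of 11 and 1420 of 27022.

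Genes of later and earlier germ cells put these values in scale. The 6 markers of elongating spermatids, the cells that replace histones and build the tail, had a median log2 difference of -3.30. Their summed intensity was 2695 to 21024 in mutants and 65093 to 115995 in wild type, with no overlap. Of these, Prm2, a protamine gene, fell without a block (log2 difference -4.17; limma, adjusted p = 0.0376). The other markers of this list missed the threshold in that model, large as their differences were (limma, adjusted p from 0.0711 for Tnp2 to 0.209 for Odf1). With the replicate number as block 6 of 6 were called and with the batch as block 5 of 6. The 9 synaptonemal complex genes had a median of -0.05 and sums of 26769 to 40087 in mutants and 28621 to 38605 in wild type. None of them was called without a block and 1 with each block, Syce2. It was lower in mutants (log2 difference -0.48), with 3987 to 4871 in mutants and 5854 to 6985 in wild type. The other genes of this list overlapped between genotypes. The 4 genes of pachytene and later spermatocytes had a median of -0.09 and 7 spermatogonial genes one of 0.15, with none called in any of these 3 models. Summed intensities of the somatic markers overlapped as well, with 4482 to 7034 in mutants and 4547 to 5833 in wild type for 6 Sertoli cell genes and 11903 to 18402 in mutants and 9561 to 16925 in wild type for 3 Leydig cell genes. Tests of the difference between these lists and the recombination genes were not made. The marker sums of the prophase list overlapped between genotypes, although the values of Syce2 did not. These sums lay wholly apart between the batches, each of which held both genotypes, so they could not lie apart between genotypes. The values of the 11 probe sets overlapped too. For Mlh3, both Msh5 probe sets and 1442058_s_at of Psmc3ip that was bound to be so, since their batches lay wholly apart. Overlap in such cases gives no contrast with the spermatid list, whose sums did not overlap between genotypes.

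Other genes of the recombination pathway likewise gave no call. The list held 63 genes that act in break formation, end resection, strand invasion, crossover formation and joint molecule resolution. Of these, 50 had 95 probe sets on the array and 71 probe sets of 46 genes passed the intensity filter. In either direction 0 of 71 were called in each of the same 3 models, against 0.115%, 2.39% and 1.79% of all probe sets. At an unadjusted p of 0.05 the counts were 0, 0 and 1, against 2009, 3872 and 3941 of all 27022. Their median log2 difference was 0.04, and 32 of 71 were below 0, against 9 of 11 for the genes above and 35.7% of all probe sets. The 6 genes with the smallest p were not called. Rad51d, a gene of recombinational repair, had a log2 difference of 0.42 (limma, adjusted p = 0.725) on probe set 1443891_at, and Rad54l, which encodes a DNA translocase, one of 0.36 (0.799). Eme1, a subunit of the MUS81 nuclease, had 0.27 (0.858), and the helicase gene Helq had 0.22 (0.918). Rmi1, whose protein works with the BLM helicase, had -0.40 (0.903) on 1430805_s_at, which gave the single unadjusted p below 0.05 with the batch block (0.0467; adjusted p = 0.331). Rad51b, also a gene of recombinational repair, had -0.38 (0.964). The groups lay wholly apart on 3 of the 71 probe sets, a smaller share than the 6.1% of all 27022. They were 2 of Rad51d in opposite directions and 1 of Sfr1, which acts in recombinational repair and was singled out after its values were seen.

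**Figure D4:**
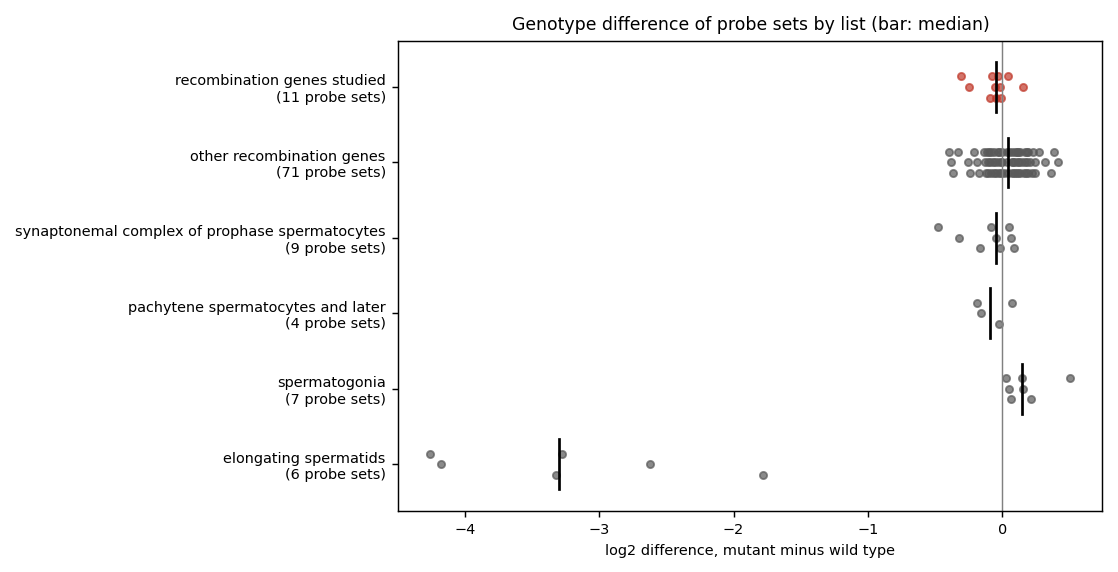
Log2 difference, mutant minus wild type (x axis), of the tested probe sets of each list, 1 point per probe set (1 per gene in the 4 marker lists), with the median as a bar. The 11 probe sets of the recombination genes lie between -0.31 and 0.16 and the 71 of other recombination genes between -0.40 and 0.42, while the 6 spermatid genes lie between -4.26 and -1.78.

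Promoter sequences are shown for Msh4 and Mlh3, which both had a higher mean in replicates 3 and 4. The third is that of Msh5, the partner of Msh4 that was lower there. Each is the 250 bases before the gene's annotated start from RefSeq (GRCm38.p6, minus strand of the chromosome, written 5′ to 3′ along the gene). RefSeq windows were at hand for 8 of the 9 genes, 10 windows in all, and Spo11 had none. Capitals mark matches, on either strand, to CNCCTCAG (bound by STRA8, the inducer of meiosis), TTTCCCGC and TTTGGCGC (E2F), GGGCGG (GC box), TGACGTCA (the cAMP response element) and AACNGNC (MYB).
Msh4, chr3:153904892-153905141: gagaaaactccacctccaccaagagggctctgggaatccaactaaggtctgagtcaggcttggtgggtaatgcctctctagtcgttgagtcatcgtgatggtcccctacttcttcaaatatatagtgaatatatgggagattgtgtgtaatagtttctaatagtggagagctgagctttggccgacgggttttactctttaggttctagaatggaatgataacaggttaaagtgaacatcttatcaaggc
Mlh3, chr12:85270600-85270849: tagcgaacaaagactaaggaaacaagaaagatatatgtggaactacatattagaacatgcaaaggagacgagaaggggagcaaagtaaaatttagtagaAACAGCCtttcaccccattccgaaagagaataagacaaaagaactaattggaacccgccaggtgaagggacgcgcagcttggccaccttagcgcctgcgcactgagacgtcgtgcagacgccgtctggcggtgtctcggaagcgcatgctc
Msh5, chr17:35046623-35046872: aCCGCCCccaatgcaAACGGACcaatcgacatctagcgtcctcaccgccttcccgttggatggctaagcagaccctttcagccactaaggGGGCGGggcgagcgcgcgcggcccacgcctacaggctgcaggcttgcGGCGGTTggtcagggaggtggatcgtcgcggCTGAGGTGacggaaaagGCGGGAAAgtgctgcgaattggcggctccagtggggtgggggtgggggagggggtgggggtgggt

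The Msh4 window held no match and had 43.6% G and C. The Mlh3 window, with 48.8%, held 1 match to AACNGNC, and the Msh5 window, with 67.2%, held 6 matches to 4 of the motifs, none overlapping another. The median over all 32851 windows was 52.4% G and C. CNCCTCAG was found for Msh5, Prdm9 and Hfm1, in 3 of the 10 windows of these genes and in 6.42% of all windows. TTTCCCGC occurred in Msh5 alone among these genes and in 0.895% of all windows. GGGCGG was found in 4 of the 10 windows (Dmc1, Mnd1, Msh5, Prdm9) and in 32.7% of all windows. AACNGNC was in 4 of the 10, from 3 genes, and in 27.7% of all windows. In Prdm9 a match to CNCCTCAG overlapped one to GGGCGG. TTTGGCGC (0.417% of all windows) and TGACGTCA (1.55%) were in none of the 10 windows. A match describes these letters and is not evidence of binding.

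Probe sets whose profile over the 8 arrays was most like that of each gene's brightest probe set were sought among all other named genes. The Pearson correlations are the highest of at least 23424 comparisons each, share the arrays and their batches, and are a description without a test. For Mlh3 the most like gene was Btaf1 (r = 0.998, n = 8 arrays, and 0.993 after the mean of each batch was removed), and 796 probe sets had r above 0.95. For Msh4 it was Rev1 (0.982 and 0.957), for Msh5 Zbtb17 (0.985 and 0.968) and for Spo11 Zfp729b (0.977 and 0.967), with 49, 62 and 35 probe sets above 0.95. Dmc1 was most like Pth1r (0.993 and 0.992), Psmc3ip most like Exosc7 (0.963 and 0.944), Mnd1 most like Gm16499 (0.982 and 0.984) and Prdm9 most like Pdlim7 (0.988 and 0.993). For these 4 genes 7, 2, 3 and 1 probe sets had r above 0.95.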

How the data were processed

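Whole testis RNA of 8 mice, 4 per genotype, was prepared with Trizol and RNeasy columns and labelled with biotin for Affymetrix arrays, per the labels' protocols. The deposited table holds linear intensity values, and GCOS is the software listed in the submitters' processing notes, without a version or settings. Each array's mean is 500 once 2% of probe sets are trimmed at each end, so the authors' values were scaled to a common target. Differences between arrays in the spread of values remain after such scaling.

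After 64 control probe sets were left out, 45037 remained. The platform annotation gave 34945 a single symbol, 932 several and 9160 none, and 34741 symbols were updated through Entrez identifiers (RefSeq, GRCm38.p6). Probe sets whose mean exceeded the 40th percentile (67.1) were tested, 27022 in all, and all 11 of the recombination genes passed. Values were taken as log2(value + 16), which understates changes of dim genes. Genotypes were compared with limma 3.58.1 (R 4.3.3) (lmFit, then eBayes with a trend on intensity). Tests were two-sided and p-values were adjusted by the Benjamini-Hochberg method. The procedure was tested on simulated data only with changes larger than those of the recombination genes. How often it would call smaller changes was not tested. Figures were drawn with matplotlib 3.10.9.

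Mice of the same replicate number deviated together from the means of their genotypes (r from 0.519 to 0.618 in 4 pairs, over probe sets). The labels give no such pairing. The batch was not removed from these values and mice of unlike number were not compared, so pairing by number cannot be told apart from the batch. Genes named were the 9 members with every probe set, Brwd1, the other recombination genes called in any of 3 models or else the 6 with the smallest p, the most like gene of each member, and markers beside a result. The members, lists and tests were chosen with earlier results of these data known. Alternatives covered pseudocounts of 1 and 64, other filters, normalizations, eBayes settings, array weights, blocks, single batches, 1 test per gene, a stricter threshold and leaving out each mouse.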

Additional observations from a re-analysis of the deposited data

How the results depend on the processing

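Across 24 alternatives 0 of the 11 probe sets of the recombination genes were called (limma), and neither were any of the other recombination genes. The replicate block changed no call among them. Over all probe sets the count of 31 calls became 646 with the replicate block, 485 with the batch block, 701 with that block but without mutant replicate 1, 668 with array weights, 58 with a pseudocount of 64, 48 after quantile normalization, and 0 within replicates 1 and 2 or at a threshold of 0.01. Leaving out single mice gave 0 to 119 calls: 0 without mutant replicate 3 or 4 or without wild-type replicate 1, 2 or 3, 12 without mutant replicate 2, 56 without wild-type replicate 4 and 119 without mutant replicate 1. The cause was not tested.

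Small differences changed sign in 31 of 259 comparisons with alternatives, none of them called. Within replicates 3 and 4 alone the log2 differences were 0.021 for Spo11, 0.016 for Dmc1 (1420335_at), 0.039 for Psmc3ip (1425271_at), 0.13 for Mlh3, 0.27 for Prdm9, -0.13 for Msh5 (1449537_at) and 0.012 for Mnd1. Within replicates 1 and 2 they were -0.10 for Msh5 (1430771_a_at) and 0.075 for Dmc1 (1449819_at). With array weights they were 0.12 for Spo11, 0.36 for Mlh3, 0.040 for Prdm9, -0.17 for Msh5 (1430771_a_at) and -0.19 for Msh5 (1449537_at). Quantile normalization gave 0.0045 for Prdm9. With the batch block and without mutant replicate 1 they were 0.0039 for Psmc3ip (1425271_at) and -0.031 for Msh5 (1449537_at). With 1 mouse left out at a time the ranges were -0.14 to 0.029 for Dmc1 (1449819_at), -0.33 to 0.15 for Mlh3, -0.21 to 0.074 for Mnd1, -0.22 to 0.39 for Msh5 (1430771_a_at), -0.081 to 0.17 for Msh5 (1449537_at), -0.14 to 0.18 for Prdm9, -0.035 to 0.013 for Psmc3ip (1425271_at) and -0.12 to 0.020 for Psmc3ip (1442058_s_at). Msh4 alone kept its sign in every alternative, from -0.43 to -0.11. By Dixon's criterion no mouse stood out in any of 22 groups of 4 values. Without detection calls, the signal over background of the dim probe sets of Prdm9 and Mnd1 is unknown, and precision is limited by 4 arrays per genotype.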

Other observations

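No probe set of Rad51d, Rmi1 or Sfr1 was called, and these genes were picked after their values were seen. The 3 tested probe sets of Rad51d had log2 differences of 0.42 (1443891_at), -0.36 (1425944_a_at) and 0.32 (1422770_at), and the genotypes lay wholly apart on the first and the second, as on 6.1% of all probe sets. On 1443891_at it read 110.2, 92.1, 100.8 and 90.3 in mutant replicates 1 to 4 and 71.6, 78.4, 49.4 and 82.3 in wild-type replicates 1 to 4. On 1425944_a_at it read 130.6, 128.4, 91.3 and 115.4 in mutants and 179.4, 135.6, 135.7 and 166.0 in wild type. The 5 tested probe sets of Rmi1 had log2 differences of -0.40 (1430805_s_at), -0.03 (1428625_a_at), 0.13 (1456696_x_at), 0.15 (1438573_at) and 0.39 (1439248_at), with genotypes that overlapped on each. Sfr1, with 4457.6, 4431.5, 4174.1 and 4235.0 in mutants and 4100.4, 3955.3, 3962.3 and 3913.2 in wild type, was higher in every mutant than in any wild-type mouse by a log2 difference of 0.12 (limma, adjusted p = 0.986).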
